A study of Mus musculus with 2 samples.

Results

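The miRNA genes of the miR-200 family, together with Mir203 and Mir205, which are typical of surface epithelium, were read in microRNA sequencing libraries of mouse forebrain. The 7 genes were chosen by symbol, by matching the Ensembl identifiers of the count tables to the GENCODE mouse annotation, and all 7 of 7 had a row among the 1973 genes of the tables. The miR-200 family has 5 genes at 2 loci, with Mir200b, Mir200a and Mir429 on chromosome 4 and Mir200c and Mir141 on chromosome 6. The forebrains came from healthy embryos of the strain B6NCrl at embryonic day 12.5, with no allele or treatment named in the labels. The single group had 2 biological replicates, and in each of them male and female embryos were pooled and RNA below 30 nt was sequenced as 1 library. Replicate 1 pooled 120 embryos and replicate 2 pooled 68 embryos. Replicate 1 held 4333194 reads on the strand of a miRNA gene and replicate 2 held 4397107, and a level is a gene's count per 1000000 of such reads (CPM). A count of 0 allows a level of up to 0.692 CPM in the first library and 0.682 CPM in the second, for counting error only. No contrast between conditions was part of the design, and differences between the pools compare 2 libraries. In a bulk sample, fewer cells of a type and less RNA per cell cannot be told apart.

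MicroRNAs are cut from hairpin precursors and lower the output of messenger RNAs that pair with the seed, which is bases 2 to 8 of the mature strand. The miR-200 family is known from epithelia, where it holds down the transcription factors Zeb1 and Zeb2, which in turn repress the miR-200 genes and the adhesion gene Cdh1. In the embryonic mouse head it is known from the olfactory epithelium. Mir203 is known from the outer layers of skin, where it limits the stem cell factor p63, and Mir205 from skin and other stratified or glandular epithelia.

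The mature strands show how the family divides, and they are printed with the seed in capitals from RefSeq on GRCm38.p6, the build of the count tables. For each gene the arm usually taken as the guide strand is shown, the 3′ arm in 6 genes and the 5′ arm in Mir205. The gene counts do not separate the arms.
miR-200b-3p: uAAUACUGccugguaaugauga
miR-429-3p: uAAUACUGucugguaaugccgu
miR-200c-3p: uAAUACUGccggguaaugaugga
miR-200a-3p: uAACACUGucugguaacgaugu
miR-141-3p: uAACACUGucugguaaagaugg
miR-203-3p: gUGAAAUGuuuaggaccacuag
miR-205-5p: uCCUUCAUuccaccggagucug
The first 3 share the seed AAUACUG and the next 2 share AACACUG, so both loci encode both seeds. Counted from 1 at the 5′ end, with the miR-200b-3p base first, miR-200a-3p differs from miR-200b-3p at 4 of 22 bases, U4C, C9U, U17C and A22U, and the first of these is the only 1 inside the seed. Closer to each other were miR-200b-3p and miR-200c-3p of different loci, which differ by U11G and A22G within the first 22 bases. Likewise miR-141-3p differs from miR-200a-3p of the other locus by C17A and U22G. The distance between miR-429-3p and miR-200c-3p, which also share a seed across loci, was not counted. In the RefSeq table no other mature mouse miRNA has the seed of miR-203-3p or miR-205-5p, and none outside the family has either miR-200 seed. The longest run of guide bases found in any of 1004 other hairpins was 16 bases, between miR-200a-3p and Mir141 and between miR-141-3p and Mir200a, and it was 12 bases for miR-429-3p and at most 10 for the other 4. Reads that matched several places stand outside the gene counts, 37.9% of all reads in each library. How far reads shorter than the mature strand were lost in this way from Mir200a and Mir141 was not tested.

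The 3 genes of chromosome 4 are transcribed in the order Mir200b, Mir200a, Mir429 on the minus strand and span 1846 bases. In GENCODE M21 all 3 lie in an intron of Ttll10 on the same strand, and Mir429 also lies in an exon of the non-coding transcript Gm13648. Mir200b (ENSMUSG00000065549.2) lies at chr4:156055681-156055750, Mir200a (ENSMUSG00000065400.1) at chr4:156054896-156054985 and Mir429 (ENSMUSG00000065427.1) at chr4:156053905-156053987, with 695 and 908 bases between neighbours. The hairpins of the gene with the fewest and the gene with the most reads of this locus follow, with the guide strand in capitals.
Mir200a: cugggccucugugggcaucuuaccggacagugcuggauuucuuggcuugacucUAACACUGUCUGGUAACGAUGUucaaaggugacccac
Mir429: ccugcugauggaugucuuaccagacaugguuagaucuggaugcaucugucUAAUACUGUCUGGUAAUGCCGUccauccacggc
Mir200c (ENSMUSG00000065462.2, chr6:124718322-124718390) and Mir141 (ENSMUSG00000065474.1, chr6:124717914-124717985) lie 336 bases apart on the minus strand, in an intron of the non-coding gene Gm15884, and the nearest protein-coding gene is Phb2 on the opposite strand. Mir203 (ENSMUSG00000065574.1) lies at chr12:112130880-112130955 on the plus strand, in no other gene of GENCODE M21 and 3321 bases from Aspg. Mir205 (ENSMUSG00000065533.1) lies at chr1:193507463-193507530 on the minus strand, in an exon of the long non-coding RNA 4631405K08Rik.

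All 7 genes were read in both libraries, with between 813 and 26609 reads in each. Mir429 was the highest, with 6141 CPM in the first pool and 3908 CPM in the second, a mean of 5024 ± 1579 CPM (SD, n = 2) and place 47 of 1973 genes. Only 703 of the 1973 genes had a read on their strand in replicate 1 and 712 in replicate 2. The rank neighbours of Mir429 by mean were Mir382 at 5031 ± 268.0 CPM and Mir125a at 4794 ± 27.3 CPM. By library Mir429 stood above both in replicate 1, in place 39, and below both in replicate 2, in place 56. Mir203 followed with 1916 and 2401 CPM in replicates 1 and 2, a mean of 2158 ± 343.3 CPM and place 74. Mir200b had 1859 and 1148 CPM, with a mean of 1504 ± 502.5 CPM, and Mir200c had 1769 and 1123 CPM, with a mean of 1446 ± 456.4 CPM. These 2 genes, which come from different loci and share a seed, held places 88 and 89 and overlapped between libraries. Mir205 had 692.1 and 976.3 CPM, with a mean of 834.2 ± 201.0 CPM, in place 112. Mir200a had 919.9 and 266.1 CPM, with a mean of 593.0 ± 462.3 CPM, in place 130. Mir141 was the lowest with 331.4 and 184.9 CPM, a mean of 258.1 ± 103.6 CPM and place 173.

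In the order of mean levels, Mir429 stood above Mir203, Mir203 above Mir200b, and Mir200c above Mir205 without overlap of the libraries. Mir200b and Mir200c, Mir205 and Mir200a, and Mir200a and Mir141 overlapped, and Mir205 and Mir200a changed places between the libraries. The libraries were made from RNA below 30 nt, so levels were not scaled by length, and the order of the 7 means was the same per base of hairpin. Differences in how well each sequence is ligated and amplified also enter levels of different miRNAs, and their part was not tested.

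**Figure D1:**
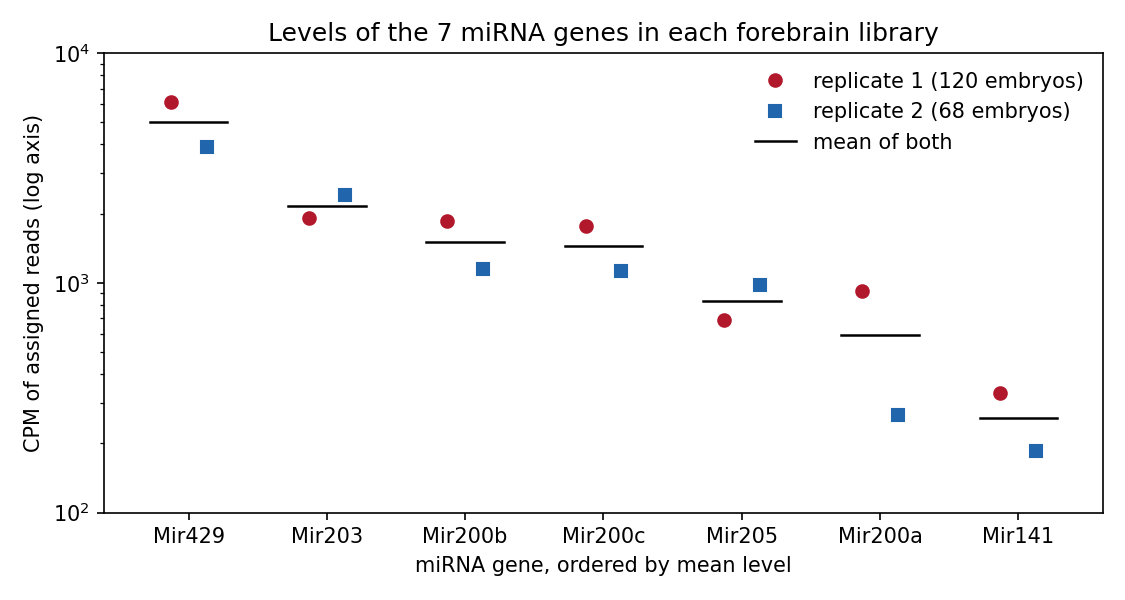
Level of each of the 7 genes in CPM on a log axis, with a circle for replicate 1, a square for replicate 2 and a line at the mean. The circle is above the square for the 5 miR-200 genes and below it for Mir203 and Mir205.

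The chromosome 4 locus carried most of the family's reads. Its 3 genes summed to 8920 CPM in replicate 1, against 5322 CPM in replicate 2, a mean of 7121 ± 2544 CPM (SD, n = 2). The chromosome 6 locus summed to 2100 and 1308 CPM, a mean of 1704 ± 560.0 CPM. The balance of the loci hardly differed between pools, since chromosome 4 reads were 4.25 times chromosome 6 reads in replicate 1 and 4.07 times in replicate 2. Chromosome 4 thus held 80.9% of miR-200 reads in replicate 1 (exact 95% binomial interval 80.6 to 81.3) and 80.3% in replicate 2 (79.8 to 80.7).

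Within a locus the hairpins were read unequally, although neighbours can come from 1 primary transcript. Mir429, the last hairpin of the chromosome 4 locus, held 68.8% of its reads in replicate 1 and 73.4% in replicate 2. Mir200b, the first hairpin, held 20.8% and 21.6%. Mir429 was 3.30 times Mir200b in replicate 1 and 3.40 times in replicate 2, so this pair kept its ratio. Mir200a, the middle hairpin, held 10.3% in replicate 1 (exact interval 10.01 to 10.62) and 5.0% in replicate 2 (4.72 to 5.29). Mir429 was 6.68 times Mir200a in replicate 1 and 14.7 times in replicate 2. At the chromosome 6 locus Mir200c held 84.2% in replicate 1 and 85.9% in replicate 2, with Mir141 the remainder.

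**Figure D2:**
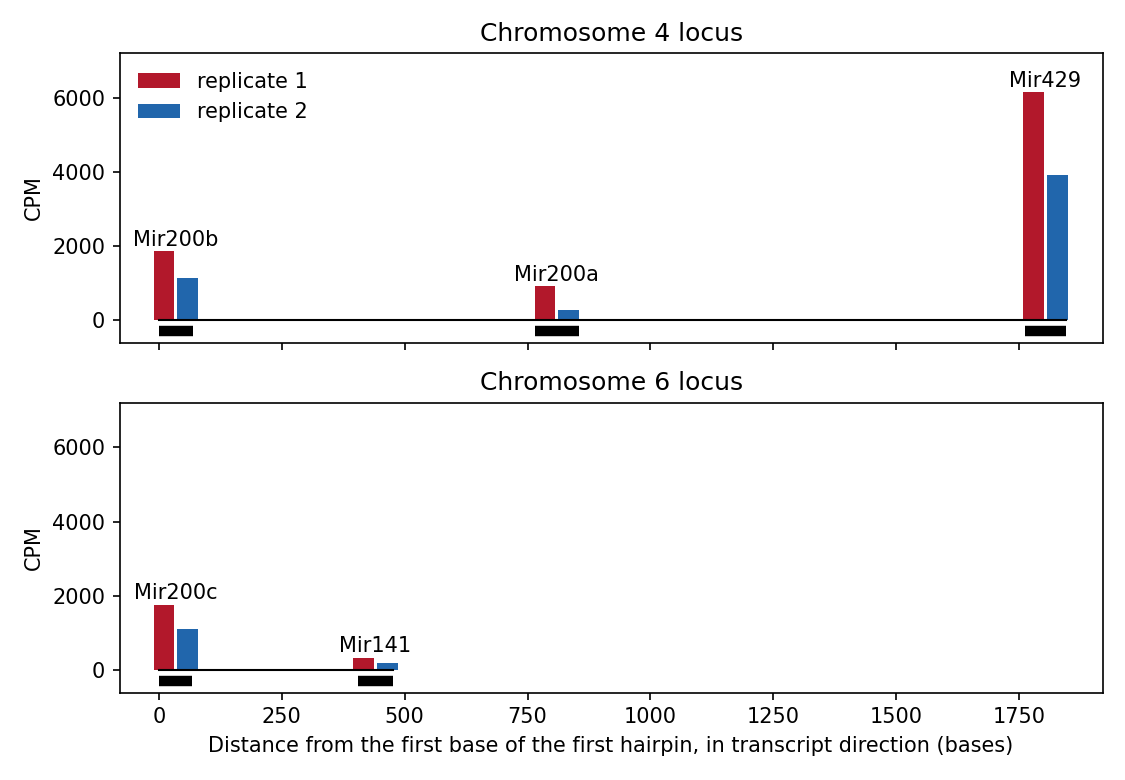
Both miR-200 loci drawn to scale, with distance in bases from the first base of the first hairpin along the direction of transcription, hairpins as black bars, and CPM of replicate 1 (left bar) and replicate 2 (right bar). Mir429 is the tallest at chromosome 4 and Mir200c at chromosome 6.

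In each locus the genes with the seed AACACUG were the least read. Mir200b, Mir429 and Mir200c, with the seed AAUACUG, summed to 9769 CPM in replicate 1, against 6180 CPM in replicate 2. Mir200a and Mir141, with AACACUG, summed to 1251 CPM in replicate 1, against 451.0 CPM in replicate 2. The AACACUG share of miR-200 reads was 11.4% in replicate 1 (exact interval 11.1 to 11.6) and 6.80% in replicate 2 (6.52 to 7.10). The mean was 9.08% ± 3.22 (SD, n = 2). Most of the gap between libraries lay in Mir200a, which had 3986 reads in replicate 1 and 1170 in replicate 2, against 1436 and 813 for Mir141.

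All 5 miR-200 genes were higher in replicate 1, and both Mir203 and Mir205 were lower in it. Together the 5 genes had 47751 reads or 11020 CPM in replicate 1 and 29155 reads or 6631 CPM in replicate 2, a fold of 1.66 for replicate 1 over replicate 2 (exact 95% interval 1.64 to 1.69). This difference was among the results that were known when the genes were chosen, so it describes these libraries. On the log2 scale the ratio of replicate 1 over replicate 2 was 1.79 for Mir200a, with an exact counting interval from 1.70 to 1.88. It was 0.84 for Mir141 (0.72 to 0.97) and 0.70 for Mir200b (0.64 to 0.75). It was 0.65 for Mir200c (0.60 to 0.71) and for Mir429 (0.62 to 0.68). For Mir203 it was -0.33 (-0.37 to -0.28), and for Mir205 it was -0.50 (-0.56 to -0.43). Fisher's exact test on the reads, two-sided and with Benjamini-Hochberg adjustment over 511 genes, gave an adjusted p of 8.53e-41 for Mir141, the largest of the 7, but it takes counting error only.

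The spread of other miRNA genes between the pools gives the scale for these ratios. Among 272 other genes with at least 100 reads in each library, the median log2 ratio was -0.04 and the central 95% lay between -0.72 and 0.42. All 5 miR-200 genes lay above this range, and Mir203 and Mir205 lay inside it. A fold of at least 1.5 higher in replicate 1 was reached by 5 of the 7 genes and by 9.98% of all 511 genes with at least 10 reads, many of them with few reads. Among genes with at least 100 reads in each library it was reached by 7 of 279 (2.51%), which were the 5 miR-200 genes, Mir101a and Mir181a-2. With an adjusted p under 0.05 by Fisher's exact test required as well, it was 10 of 511 genes (1.96%), of which 5 were miR-200 genes. A fold of at least 1.5 lower in replicate 1 was reached by 0 of the 7 genes, against 13.3% of the 511, 3.94% of the 279 and, with the adjusted p required, 4.31% of the 511. By the adjusted p alone, 5 of the 7 genes were higher in replicate 1, against 12.5% of the 511, and 2 of the 7 were lower, against 20.2%. The 5 miR-200 genes lie at 2 loci, where neighbours can come from 1 primary transcript, so they are not independent cases in these counts. A ratio at least as low as that of Mir205 was found in 14 of the 272 other genes (5.15%), and at least as low as that of Mir203 in 28 (10.3%).

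**Figure D3:**
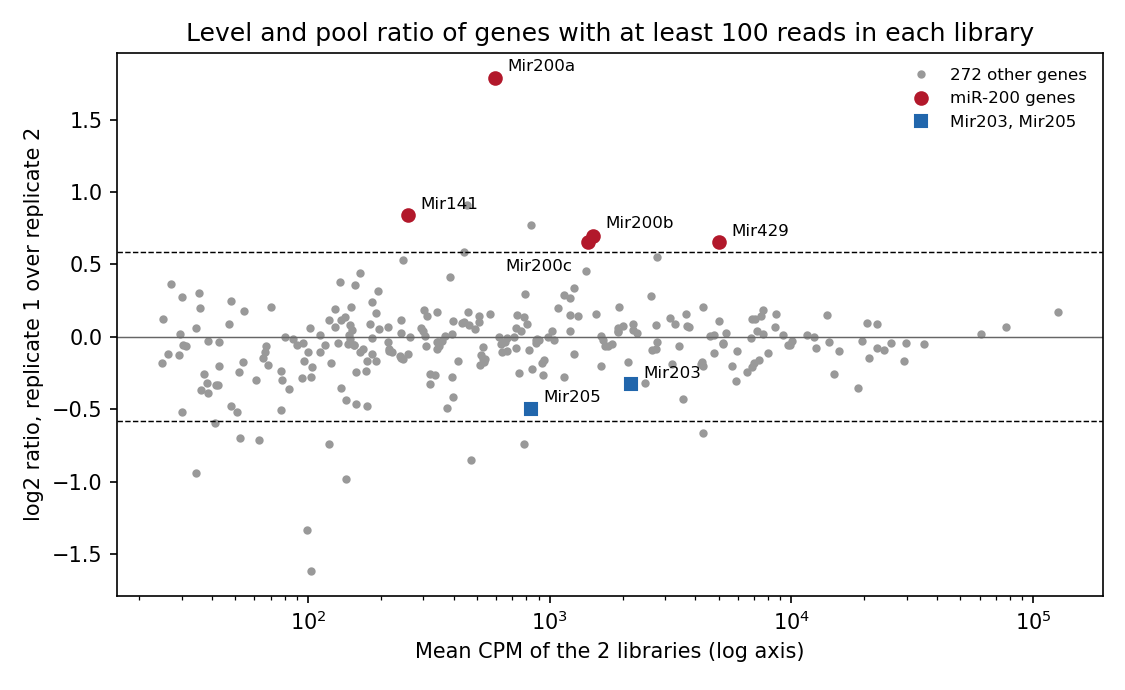
Mean CPM on a log axis against the log2 ratio of replicate 1 over replicate 2 for genes with at least 100 reads in each library, with dashed lines at 1.5-fold. The 5 miR-200 genes lie above the upper line, Mir200a highest at 1.79, while Mir203 and Mir205 lie between the lines.

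The loci were then compared by the ratio of replicate 1 over replicate 2 in their summed reads, over 6 pairs with p-values from Fisher's exact test adjusted over them. The chromosome 4 locus stood at 0.74 and the chromosome 6 locus at 0.68 on the log2 scale. Each differed from Mir203 and from Mir205, with differences between 1.01 and 1.24 and a largest adjusted p of 5.79e-176 in these 4 pairs by the exact test. Between the miR-200 loci the difference was 0.06 (95% interval 0.01 to 0.12, exact adjusted p = 0.0222). Without Mir200a, an alternative chosen after seeing the data, it was -0.021 (-0.07 to 0.03, exact p = 0.444), so the call between the loci rests on that gene. Mir203 and Mir205 differed by 0.17 (0.09 to 0.25, adjusted p = 2.79e-05 by Fisher's exact test). Single ratios of the 272 other genes had an SD of 0.27, and the differences of 0.06 and 0.17 were smaller than this. The spread of differences between genes was not measured. All of these tests take counting error only and compare 2 libraries.

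Among the hairpins of 1 locus, 4 pairs were compared in the same way. Mir200a differed from Mir200b by 1.09 on the log2 scale (0.988 to 1.201) and from Mir429 by 1.14 (1.04 to 1.24), with exact adjusted p-values of 1.45e-95 and 1.88e-126. Mir429 and Mir200b, on either side of Mir200a, differed by -0.04 (-0.10 to 0.01, exact adjusted p = 0.147). Mir141 differed from Mir200c by 0.19 (0.05 to 0.32, exact adjusted p = 0.00856), less than the SD of 0.27 of single ratios. These tests too take counting error only. The ratio of Mir200a was above that of all 272 other genes with at least 100 reads in each library, of which the highest was Mir101a at 0.91.

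**Figure D4:**
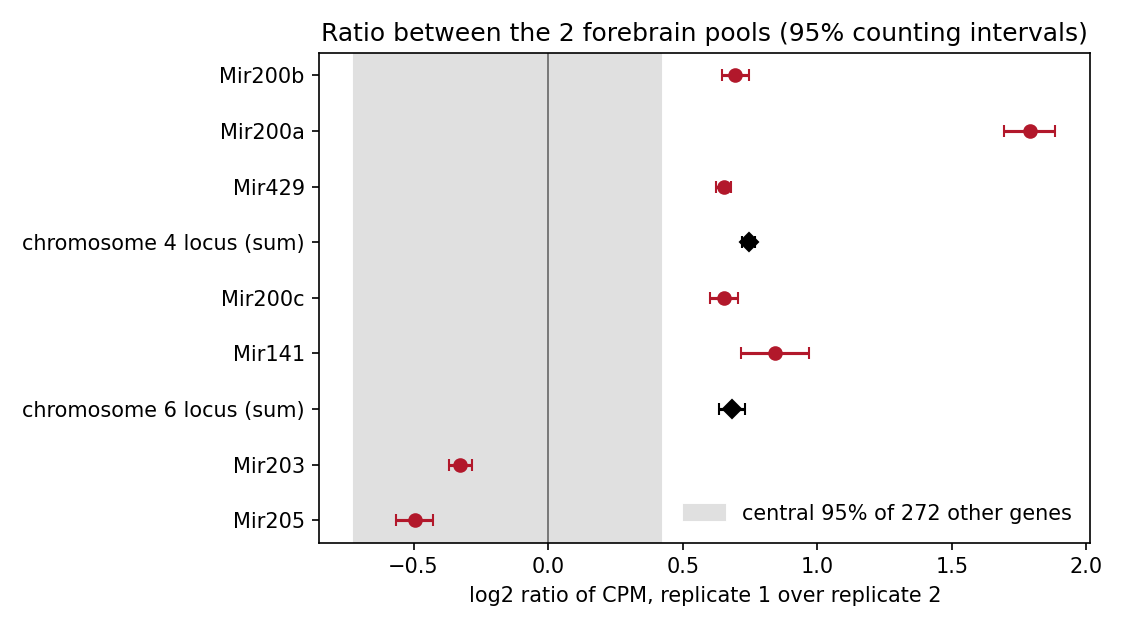
The log2 ratio of CPM of replicate 1 over replicate 2 for each gene (circles) and for the sum of each miR-200 locus (diamonds), with 95% counting intervals and a grey band for the central 95% of 272 other genes, from -0.72 to 0.42. Mir200a stands apart from its neighbours at 1.79, and Mir203 and Mir205 lie inside the band.

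Outside the 7 genes, those with the pool ratio nearest to that of the summed miR-200 genes (0.73), measured as the absolute difference of log2 ratios over 2 samples, were Mir181a-2, Mir3071, Mir153, Mir101a and Mir451a. Mir181a-2 had 1053 CPM in replicate 1, against 616.5 CPM in replicate 2, a log2 ratio of 0.77. Mir101a had 594.5 and 315.7 CPM, a ratio of 0.91. Their hairpins share runs of 28 bases with Mir181a-1 and 20 bases with Mir101b, so their counts are uncertain. The others stood at 0.58 for Mir3071, 0.55 for Mir153 and 0.53 for Mir451a. The hairpin of Mir451a shares a run of 16 bases with Mir451b, and those of Mir200a and Mir141 share 17 bases. How far such runs changed the counts of any of these genes was not tested.

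Lists of miRNAs of the forebrain and of other tissues were read beside these ratios, and their part in the results was not tested. The forebrain list, which includes the cortical progenitor miRNA Mir92b and the neural miRNA Mir137, summed to 28978 CPM in replicate 1, against 28523 CPM in replicate 2, and 8 of the 10 genes with a row had at least 10 reads in each library. Mir92b stood at 19620 ± 283.3 CPM (SD, n = 2) and held most of the sum, and Mir137 stood at 5207 ± 112.5 CPM. The Mir124a genes had means between 1.95 and 6.29 CPM, and Mir9-2 had 5.61 CPM, against 713.5 CPM for Mir9-3. Reads that matched several places are not in these counts, and how many such genes lost was not tested. Hox cluster miRNAs, which mark the trunk and hindbrain, summed to 188.5 and 176.0 CPM, led by Mir10a and Mir10b at 70.0 ± 7.04 and 65.4 ± 4.67 CPM. Neither list had a detected gene that differed by 1.5-fold, but Mir153, the third most read gene of the forebrain list and 1 of the genes nearest to the miR-200 ratio, stood at 3304 CPM in replicate 1, against 2251 CPM in replicate 2, a log2 ratio of 0.55.

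The summed level of sensory organ miRNAs was higher in replicate 1, with no gene past 1.5-fold. Mir183, Mir96 and Mir182, which are made together in sensory cells including those of the olfactory epithelium, summed to 5113 CPM in replicate 1, against 4103 CPM in replicate 2. Mir182 had a log2 ratio of 0.28, Mir183 of 0.45 and Mir96 of 0.15, of which that of Mir183 lay above the central 95% of the 272 other genes. The neuroendocrine list summed to 2799 and 2416 CPM, with 0 of 4 past 1.5-fold. Within it Mir7b stood at 1405 and 1115 CPM, a ratio of 0.33, and Mir7-1 at 646.4 and 663.4 CPM, a ratio of -0.04. Mir375, known from pituitary and islet cells, had a ratio of 0.41, and Mir7-2 had a ratio of 0.0038. Epithelial miRNAs of gut and other organs stood low, at 266.3 and 277.7 CPM in sum, with Mir31 at 96.7 and 103.9 CPM, Mir192 at 87.9 and 91.7 CPM, and 0 of 3 detected genes past 1.5-fold. Such a fold was reached upward by 9.98% and downward by 13.3% of all 511 genes. Counts of 0 in lists this short say little.

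Mesenchymal, vascular, eye and multiciliated miRNAs had lower summed levels in replicate 1, as did Mir203 and Mir205. The mesenchymal list summed to 13294 CPM in replicate 1, against 16134 CPM in replicate 2. Its log2 ratios were below 0 in all 7 of 7 genes, with a median of -0.48. The 272 genes outside the miR-200 family, Mir203 and Mir205 with at least 100 reads in each library had a median of -0.04. Most of those 272 were thus below 0 too, and they include genes of this list. In this list 1 of 7 genes was past 1.5-fold, beside 13.3% of all 511 genes, and it was Mir199a-1 with 16 and 27 reads. Its highest genes were Mir143, of smooth muscle and mural cells, at -0.30 and Mir140, of cartilage, at -0.12. Mir126a, of endothelial cells, stood at 16564 and 21180 CPM, a ratio of -0.35. Mir204 and Mir211, known from retinal pigment epithelium and, for Mir204, choroid plexus, stood at 587.6 and 982.2 CPM and at 10.6 and 87.3 CPM, with ratios of -0.74 and -3.04. Multiciliated cell miRNAs summed to 3987 and 5940 CPM with 2 of 5 past 1.5-fold, beside the same 13.3%. These were Mir449a, which held most of the sum, at -0.66 and Mir449b, with 18 and 39 reads, at -1.09. Of the other members, Mir449c stood at -0.51, Mir34c at 0.0013 and Mir34b at 0.23. No gene with a row in these lists was at 0 in both libraries.

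**Figure D5:**
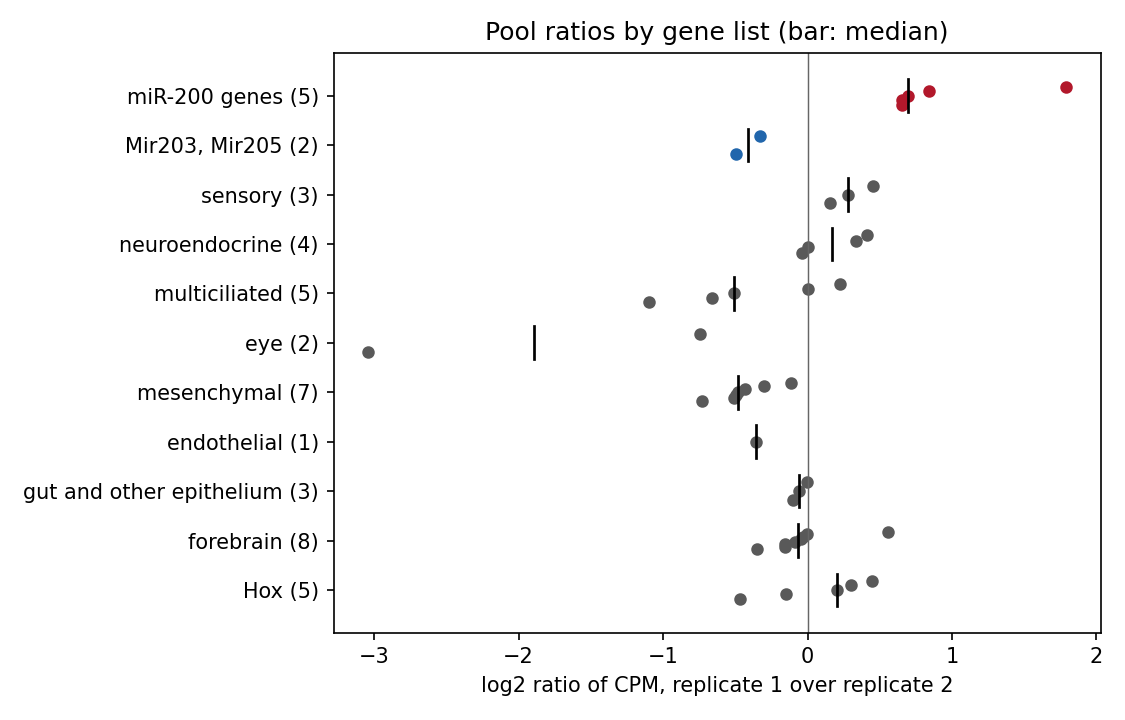
Log2 ratios of CPM of replicate 1 over replicate 2 for the miR-200 genes, for Mir203 and Mir205, and for the detected genes of each list, with 1 point per gene and a bar at the median. The 5 miR-200 genes lie at 0.65 or above, and the mesenchymal genes lie below 0.

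Reads on the strand opposite to a gene were found for Mir203 and for none of the other 6. Mir203 had 125 such reads in replicate 1, or 1.48% of the reads of both strands (exact 95% interval 1.24 to 1.77), and 118 in replicate 2, or 1.11% (0.92 to 1.32). The 5 miR-200 genes and Mir205 had 0 in both libraries, where a count of 0 allows up to 3 reads. RefSeq places the gene Gm51289, with the mature strands of miR-203b, on that strand.
miR-203b-3p: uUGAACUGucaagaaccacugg
miR-203b-5p: aGUGGUCCuaaacauuucac
The seeds, in capitals, differ from that of miR-203-3p, and all 20 bases of miR-203b-5p are the reverse complement of a stretch of miR-203-3p. GENCODE M21 has no gene of that name, and which strand of miR-203b the reads came from cannot be read from the counts.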

How the data were processed

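The values are raw read counts per miRNA gene and sample, as deposited by the authors. Per the notes deposited beside them, the reads were aligned to mm10 and counted on annotation M4. Not given in the sources used here were the aligner, the counter and any trimming. Each table gives both strands, the gene strand and the opposite strand, read from the values since the first equals the sum of the other 2 in every gene. The 4 rows that name no gene were left out; in replicates 1 and 2, 17.5% and 16.8% of reads were unmapped, 37.9% and 37.9% matched several places, 5.49% and 5.93% lay in no feature and 0 were ambiguous. Symbols and positions came from GENCODE M21 (1894 of 1973 identifiers matched). Mir200b and Mir200c have another identifier version there, so the counted interval may differ. Mature strands and hairpins came from RefSeq, where 7 of 7 genes matched.

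The genes and lists were chosen with earlier results of these data known. The genes named were the 7 members, the 2 most abundant genes of each of 9 lists, the 5 genes nearest in pool ratio and the rank neighbours; other list genes were named after their values were seen. With 1 group no contrast could be fitted with edgeR. Pool ratios carry exact conditional binomial intervals, shares exact (Clopper-Pearson) intervals and differences of ratios normal intervals, all 95% and for counting error only, since no molecular identifiers are named. Fisher's exact test was run over 511 genes with at least 10 reads together. The Fisher calls and the intervals of the pool ratios were tried on simulated counts with counting error only. Spread between pools beyond counting error was not simulated. Alternatives used edgeR 4.0.16 TMM scaling, DESeq2 1.42.0 size factors, the both-strand column, other denominators, filters, folds and pseudocounts. Python 3.11.15, SciPy 1.17.1 and R 4.3.3 were used.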

Additional observations from a re-analysis of the deposited data

Results flagged for a closer look

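Reads opposite Mir203 were picked out because they lie in a column that the comparisons do not use and exceed what a count of 0 allows. They numbered 125 in replicate 1 and 118 in replicate 2, or 28.8 and 26.8 per 1000000 assigned reads.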

How the results depend on the processing

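The log2 ratio of replicate 1 over replicate 2 kept its direction and its side of 1.5-fold for the 5 miR-200 genes, both loci, Mir203 and Mir205 under TMM, DESeq2 size factors, the both-strand column, the other denominators and pseudocounts of 1 and 10. It ranged from 0.72 to 0.78 for the summed miR-200 genes and from 1.75 to 1.83 for Mir200a. The difference between the miR-200 loci turned to -0.021 without Mir200a. Per 1000000 of all reads in the tables, by construction, levels were lower, at 2789 for the chromosome 4 locus, 667.7 for the chromosome 6 locus, 847.0 for Mir203, 327.5 for Mir205 and 3457 for the 5 miR-200 genes. Genes at least 1.5-fold higher in replicate 1 numbered 51 of 511, against 10 of 316 with at least 100 reads together, 145 of 763 with at least 1 read, and 17 of 511 at 2-fold. Genes at least 1.5-fold lower numbered 68, against 15, 170 and 28 under these settings. Leaving out 1 replicate gives the level of the other, and no pool ratio. No paired analysis was possible because there is 1 group. With 2 libraries, the spread of the levels rests on 1 degree of freedom, and each pool cannot be told apart from its library.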
